A study of Mus musculus with 6 samples.

Results

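Alox5 and the other enzymes and receptors of leukotriene and prostanoid biology were followed in mouse bone marrow cells that carried BCR-ABL, BCR-ABL with Blk, or an empty vector. The 10 genes were Alox5, Alox5ap, Alox15, Lta4h, Ltc4s, Pla2g4a, Tbxas1, Ptgs1, Cysltr1 and Cysltr2, each looked up by its symbol among probe sets that have 1 gene symbol. Of these, 9 were found, each with 1 probe set, among 19938 named genes; Ptgs1 was not analysed here.

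Donor marrow from C57BL/6 (B6) mice pre-treated with 5-fluorouracil was transduced with a retrovirus and transplanted into B6 recipients, and all groups carried GFP and had the genotype given as WT. In the BCR-ABL-Blk group the virus expressed the fusion oncogene together with Blk, in the BCR-ABL group the oncogene by itself, and in the vector group neither; each group had 2 arrays, 6 in all. Marrow was taken 14 days after transplantation from mice listed as 8 weeks old, and GFP+Lin-c-Kit+Sca-1+ cells were sorted; the labels call them LSCs in the groups with BCR-ABL and HSCs in the vector group. The labels give neither the number of mice in a sample nor the promoter that drives the transgenes. Of the sorting markers, Kit read between 10.3 and 10.9 on the log2 scale over the 6 arrays, and Ly6a (Sca-1) was not analysed here. Among lineage markers that the gate selects against, Ly6g read 6.28 and 7.91 on the BCR-ABL-Blk arrays and 6.71 and 7.07 on the BCR-ABL arrays, against 6.23 and 8.50 on the vector arrays. Itgam read 7.24 and 7.11 on the BCR-ABL-Blk arrays and 7.155 and 7.495 on the BCR-ABL arrays, against 7.78 and 7.78 on the vector arrays, and Cd3e stayed between 7.35 and 7.64.

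Leukotrienes and prostanoids are lipid mediators made from arachidonic acid, which cytosolic phospholipase A2 releases from membranes. The enzyme 5-lipoxygenase, helped by its activating protein, turns arachidonic acid into leukotriene A4, from which separate enzymes make leukotriene B4 or the cysteinyl leukotrienes; cyclooxygenases and the synthases behind them make prostaglandins and thromboxane. In blood cells these mediators are known mainly as products of mast cells, granulocytes, macrophages and platelets, and Alox5 has been studied in mouse models of BCR-ABL leukemia as a gene that leukemic stem cells need. Bulk RNA of a sorted population cannot tell more RNA per cell from more cells of one kind.

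All levels below are quantile-normalized log2 values of 1 probe set, so they are set against each other within a gene and not between genes. The deposited arrays had medians from 7.01 to 7.52. The vector arrays differed from each other in lineage genes: 11 measured B cell genes averaged 10.60 on vector replicate 1 and 8.96 on vector replicate 2, and 12 neutrophil genes averaged 10.12 and 10.89. Signal over background was not measured, and 2 arrays a group limit the precision: the median standard error of a difference over all named genes was 0.129.

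In BCR-ABL cells Alox5 rose against vector cells, and it was the 1 gene of the 9 that passed the test (limma, adjusted p under 0.05), where 0.145% of all named genes passed. Pla2g4a, Tbxas1 and Cysltr2 lay above vector on both arrays of both groups with BCR-ABL, at sizes from 0.54 to 1.45 log2 units, without passing. Alox5ap, Lta4h, Ltc4s and Alox15 had estimated differences of at most 0.21 in either direction. Cysltr1 had estimates of −0.41 and −0.44, which rested on 1 vector array. With added Blk, Alox5 read below BCR-ABL cells on both arrays, although that gap did not pass over all genes.

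Pla2g4a, the cytosolic phospholipase A2 that frees arachidonic acid, stands at the head of the pathway. It read 10.56 and 10.63 on the BCR-ABL-Blk arrays and 10.78 and 10.68 on the BCR-ABL arrays, against 10.13 and 9.98 on the vector arrays. All 4 arrays with BCR-ABL lay above both vector arrays, and replicates within each group lay close together. The difference from vector was 0.68 in BCR-ABL cells (SE 0.11, 1.60-fold, limma adjusted p = 0.0835) and 0.54 in BCR-ABL-Blk cells (SE 0.11, 1.46-fold, adjusted p = 0.133). Without vector replicate 1 the differences were 0.75 and 0.615, and without vector replicate 2 they were 0.61 and 0.47. Each of these fits left 1 vector array and so had no measure of the spread in that group.

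Alox5 encodes 5-lipoxygenase, the enzyme that commits arachidonic acid to leukotrienes. Its probe set read 9.07 and 9.12 on the BCR-ABL-Blk arrays and 9.395 and 9.66 on the BCR-ABL arrays, against 7.97 and 8.12 on the vector arrays. The 3 groups did not overlap: BCR-ABL was highest, BCR-ABL-Blk in between and vector lowest. The means were 9.09 ± 0.03 in BCR-ABL-Blk, 9.53 ± 0.19 in BCR-ABL and 8.04 ± 0.11 in vector cells (SD, n = 2 each). Against vector, Alox5 rose 2.80-fold in BCR-ABL cells (log2 difference 1.48, 95% interval 1.13 to 1.84, limma adjusted p = 0.0254), the 13th smallest p-value of the 19938 genes. In BCR-ABL-Blk cells the value was 2.07-fold (log2 difference 1.05, 95% interval 0.70 to 1.40), which lay just outside the threshold (adjusted p = 0.0661). Between BCR-ABL-Blk and BCR-ABL cells the difference was −0.43 (95% interval −0.79 to −0.08), a fold of 0.741, with an unadjusted p of 0.0231 and an adjusted p of 0.999.

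The size of the Alox5 rise in BCR-ABL cells varied little with the arrays used, but the call did not always hold. With each array left out in turn the difference stayed between 1.35 and 1.615. It was 1.615 and 1.35 without replicate 1 or 2 of BCR-ABL, and 1.41 and 1.56 without replicate 1 or 2 of vector. In BCR-ABL-Blk cells the difference from vector was 0.98 and 1.13 without replicate 1 or 2 of vector. Each such fit left 1 array in a group, whose spread it could not measure. Limiting the fit to the 2 groups compared ended the BCR-ABL call (limma adjusted p = 0.0551). Of the 14 alternatives tried, 9 kept the BCR-ABL call and 5 lost it. The smallest adjusted p-values came without normalization between arrays, at 2.75e-07 for BCR-ABL and 1.75e-05 for BCR-ABL-Blk against vector (limma). They did not come with more precise estimates. In that setting the differences were 1.39 and 1.205, each with an SE of 0.23 beside 0.15 with quantile normalization. Of all genes 401 and 732 passed there.

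**Figure D1:**
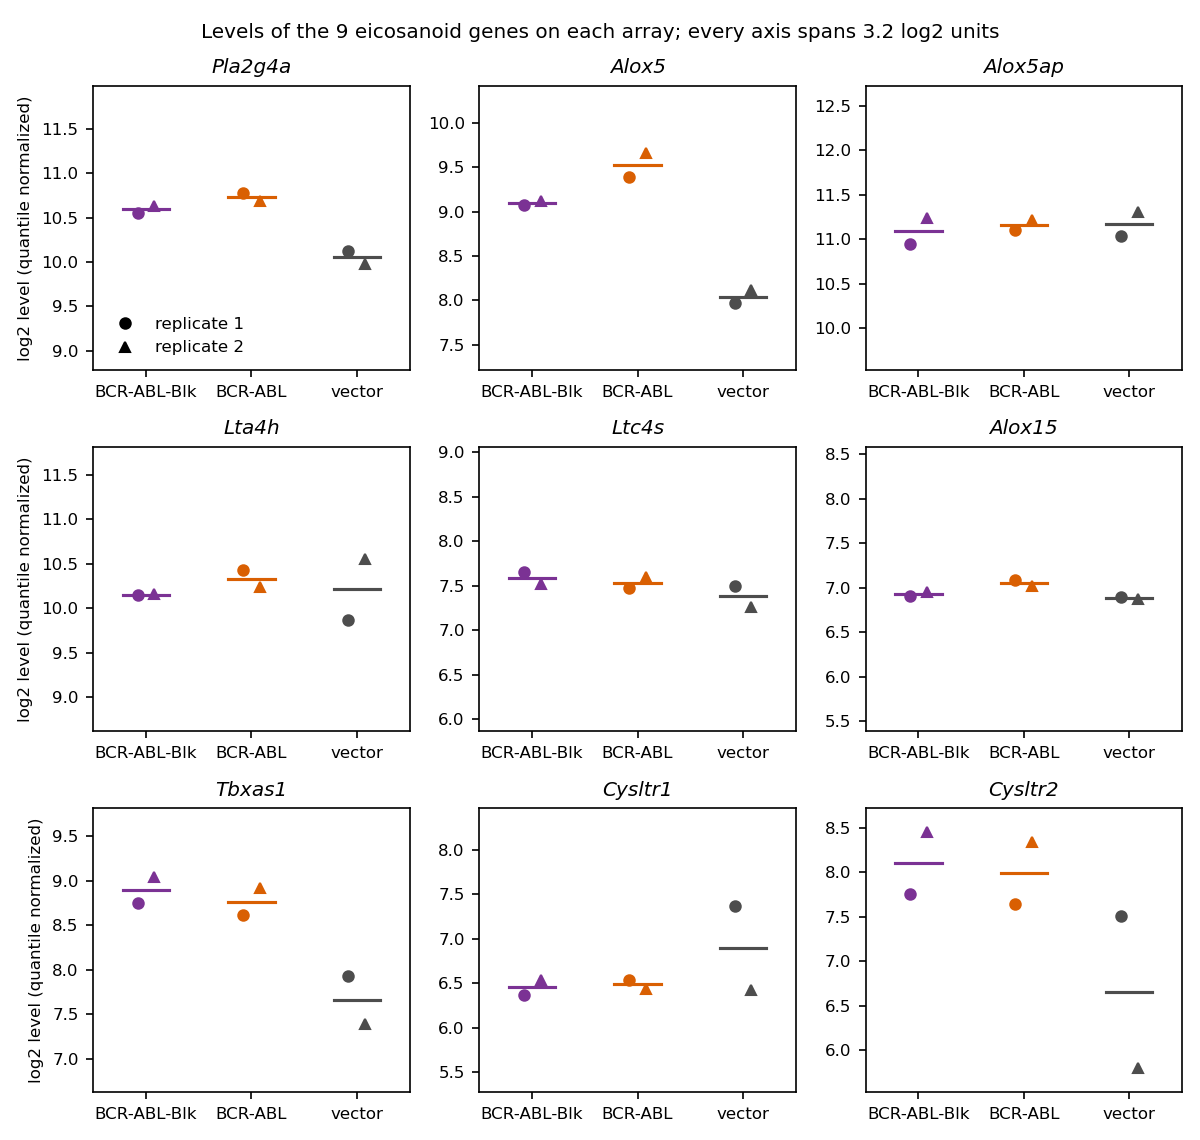
Quantile-normalized log2 level (vertical axis) of the 9 genes on each array in BCR-ABL-Blk, BCR-ABL and vector cells; circles are replicate 1, triangles replicate 2, bars the group means. Alox5, Pla2g4a, Tbxas1 and Cysltr2 read higher on all 4 arrays with BCR-ABL than on both vector arrays, as does Alox15 by little, and the vector arrays of Cysltr2 (7.51 and 5.80) and Cysltr1 (7.37 and 6.42) stand far apart.

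Alox5ap encodes the 5-lipoxygenase activating protein, which presents arachidonic acid to the enzyme. It read 10.94 and 11.235 on the BCR-ABL-Blk arrays and 11.10 and 11.21 on the BCR-ABL arrays, against 11.03 and 11.30 on the vector arrays. The groups overlapped fully. The difference from vector was −0.01 in BCR-ABL cells (95% interval −0.32 to 0.30) and −0.08 in BCR-ABL-Blk cells (95% interval −0.39 to 0.23), so a rise of the size seen for Alox5 in BCR-ABL cells lay outside both intervals.

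Lta4h encodes leukotriene A4 hydrolase, which makes leukotriene B4. It read 10.15 and 10.155 on the BCR-ABL-Blk arrays and 10.42 and 10.23 on the BCR-ABL arrays, against 9.87 and 10.555 on the vector arrays. The vector arrays spanned all the others. The differences from vector were 0.12 in BCR-ABL (95% interval −0.38 to 0.61) and −0.06 in BCR-ABL-Blk cells (95% interval −0.56 to 0.43), neither past the test (adjusted p = 0.933 and 0.970).

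Ltc4s encodes leukotriene C4 synthase, which makes the first cysteinyl leukotriene. It read 7.66 and 7.52 on the BCR-ABL-Blk arrays and 7.47 and 7.59 on the BCR-ABL arrays, against 7.495 and 7.26 on the vector arrays. The BCR-ABL-Blk arrays exceeded the vector arrays, by little, and the BCR-ABL arrays overlapped them. The differences from vector were 0.15 in BCR-ABL (95% interval −0.16 to 0.46) and 0.21 in BCR-ABL-Blk cells (95% interval −0.10 to 0.52).

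Alox15, the 12/15-lipoxygenase gene, whose enzyme oxygenates arachidonic and linoleic acid outside the leukotriene branch, varied least. Its 6 arrays spanned 0.21 log2 units. It read 6.91 and 6.95 on the BCR-ABL-Blk arrays and 7.09 and 7.02 on the BCR-ABL arrays, against 6.90 and 6.88 on the vector arrays. The groups did not overlap, yet the differences from vector were 0.17 in BCR-ABL (95% interval −0.06 to 0.40) and 0.04 in BCR-ABL-Blk cells (95% interval −0.19 to 0.27), neither past the test.

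Tbxas1 encodes thromboxane A synthase, which turns prostaglandin H2 into thromboxane A2, the platelet activator. It read 8.755 and 9.05 on the BCR-ABL-Blk arrays and 8.62 and 8.915 on the BCR-ABL arrays, against 7.93 and 7.39 on the vector arrays. All 4 arrays with BCR-ABL lay above both vector arrays, whose own gap was the widest within a group for this gene. The difference from vector was 1.11 in BCR-ABL cells (SE 0.22, 2.15-fold, limma adjusted p = 0.142) and 1.24 in BCR-ABL-Blk cells (SE 0.22, 2.36-fold, adjusted p = 0.0941). Without vector replicate 1 the differences were 1.38 and 1.51, and without vector replicate 2 they were 0.84 and 0.97.

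Cysltr1 and Cysltr2 encode the G protein-coupled receptors for cysteinyl leukotrienes, and their vector arrays differed most of all 9 genes. Cysltr2 read 7.76 and 8.45 on the BCR-ABL-Blk arrays and 7.64 and 8.35 on the BCR-ABL arrays, against 7.51 and 5.80 on the vector arrays. Vector replicate 1 lay just below the lowest array with BCR-ABL, and vector replicate 2 far below it. The differences from vector were 1.34 in BCR-ABL (SE 0.52, adjusted p = 0.534) and 1.45 in BCR-ABL-Blk cells (SE 0.52, adjusted p = 0.426). Without vector replicate 1 they were 2.19 and 2.31, and without vector replicate 2 they were 0.49 and 0.60.

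Cysltr1 read 6.37 and 6.54 on the BCR-ABL-Blk arrays and 6.54 and 6.44 on the BCR-ABL arrays, against 7.37 and 6.42 on the vector arrays. Vector replicate 1 alone stood high, and vector replicate 2 lay among the arrays with BCR-ABL. The differences from vector, −0.41 in BCR-ABL (95% interval −1.03 to 0.22) and −0.44 in BCR-ABL-Blk cells (95% interval −1.07 to 0.18), turned to 0.07 and 0.03 without vector replicate 1. Without vector replicate 2 they were −0.88 and −0.92. Vector replicate 1, the higher vector array for both receptors, also had the higher mean of several marker lists. Among them were B cell (10.60, against 8.96 on vector replicate 2), erythroid (10.41 against 9.88) and megakaryocyte and platelet genes (7.99 against 7.70). Genes of the sorted cells themselves were also higher (9.34 against 9.12). Monocyte and macrophage (9.38 against 9.50) and neutrophil genes (10.12 against 10.89) went the other way. The part of any of these cells in the receptor values was not tested.

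**Figure D2:**
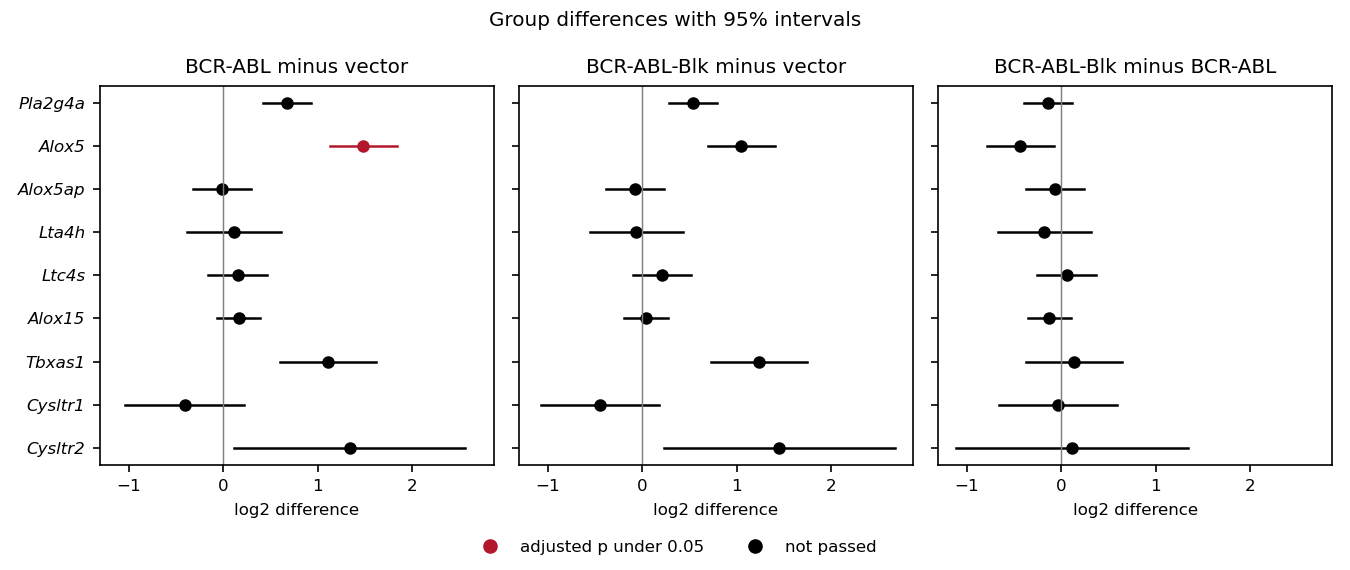
Log2 difference (horizontal axis) of each gene between the groups named above each panel, with its 95% interval from the fit over 6 arrays; red marks an adjusted p under 0.05. Alox5 in BCR-ABL minus vector (1.48) is the 1 red point, and the interval of Cysltr2 is the widest.

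Counted over the 9 genes, 5 lay wholly above vector in BCR-ABL cells and 0 wholly below, where 22.1% and 14.9% of all named genes did; 4 of the 9 had an unadjusted p under 0.05, where 8.64% of all genes did. In BCR-ABL-Blk cells 6 lay wholly above vector and 0 wholly below, where 19.7% and 17.5% of all genes did; 0 passed the test, against 0.140% of all genes called in either direction, while 4 of the 9 had an unadjusted p under 0.05, where 9.42% of all genes did. Both comparisons use the same vector arrays, so these counts are not separate evidence. The 9 genes were also chosen with earlier results of these data known, so the counts describe them and are not a test. The median difference of the 9 genes from vector was 0.17 in BCR-ABL cells and 0.21 in BCR-ABL-Blk cells, beside 0.02 and 0.004 over all named genes.

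BCR-ABL-Blk was set against BCR-ABL cells to see the effect of Blk, a tyrosine kinase of the Src family best known from the B lineage, on top of the oncogene. No member passed by limma, and 1 of the 9, Alox5, had an unadjusted p under 0.05; over all genes 0.00% passed and 3.96% had an unadjusted p under 0.05. On both BCR-ABL-Blk arrays Alox5, Alox15, Lta4h and Pla2g4a read below both BCR-ABL arrays, 4 of 9 genes where 20.0% of all genes did, and 0 lay wholly above, where 14.0% did. Apart from Alox5 (−0.43) these differences were small: −0.18 for Lta4h (95% interval −0.67 to 0.32), −0.14 for Pla2g4a (95% interval −0.39 to 0.12) and −0.125 for Alox15 (95% interval −0.35 to 0.10). Tbxas1 differed by 0.13 (95% interval −0.37 to 0.64), Cysltr2 by 0.11 (95% interval −1.11 to 1.34), Ltc4s by 0.06, Cysltr1 by −0.035 and Alox5ap by −0.07. Without normalization between arrays the median gene shifted by 0.255 in this comparison; the Alox5 difference was then −0.185, and Pla2g4a, Lta4h, Alox15, Alox5ap and Cysltr1 turned positive in sign.

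**Figure D3:**
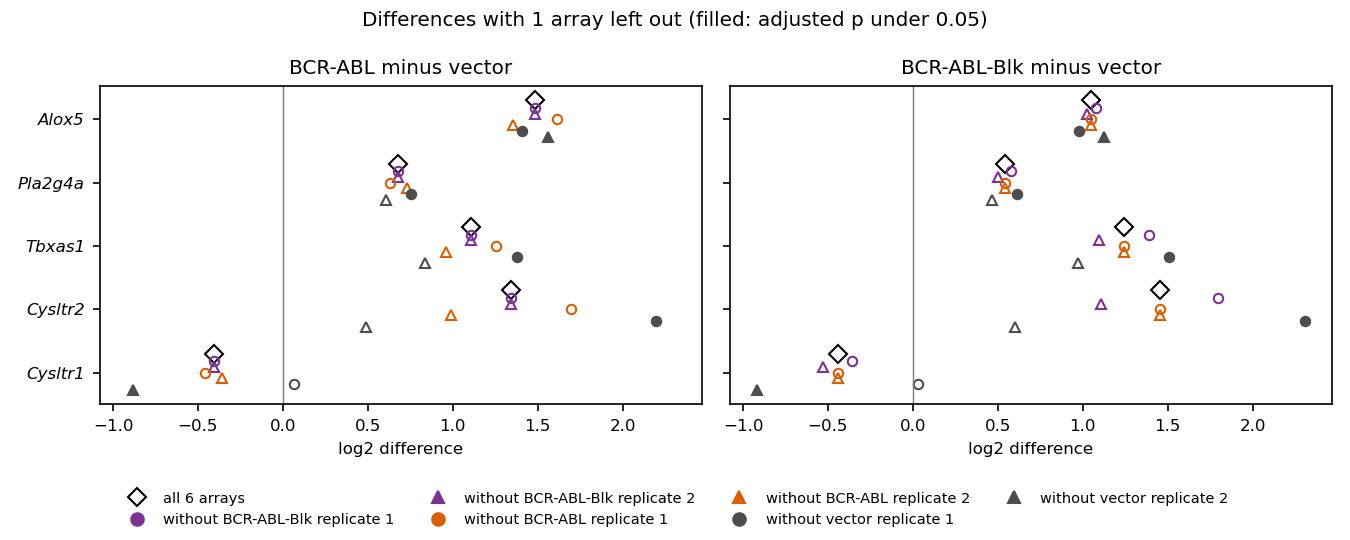
Log2 difference from vector (horizontal axis) of 5 genes with all 6 arrays (diamonds) and with each array left out (circles and triangles, coloured by the group of the array left out; filled where the adjusted p was under 0.05). Alox5 stays between 1.35 and 1.615 in BCR-ABL minus vector, while Cysltr2 runs from 0.49 to 2.19 and Cysltr1 crosses 0. Each fit with an array left out has 1 array in that group, whose spread it cannot measure.

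Bases around the start sites are shown for the 4 genes with the largest differences above vector, from the RefSeq promoter table (GRCm38.p6), 250 bases before to 50 after the start, 5′ to 3′ on the gene's strand. They are Alox5 at chr6:116461129-116461428 (minus strand), Pla2g4a at chr1:149961241-149961540 (minus strand, the more upstream of its listed starts), Tbxas1 at chr6:38918736-38919035 (plus strand) and Cysltr2 at chr14:73049065-73049364 (minus strand). The Tbxas1 start lies inside the gene as listed, which begins at position 38864159, and no window was listed for that upstream end. Capitals mark the letters GGGCGG (a GC box, bound by Sp1 family factors) and GAGGAA (a core of PU.1 sites), each searched on both strands, the second reading TTCCTC on the other strand.
Alox5: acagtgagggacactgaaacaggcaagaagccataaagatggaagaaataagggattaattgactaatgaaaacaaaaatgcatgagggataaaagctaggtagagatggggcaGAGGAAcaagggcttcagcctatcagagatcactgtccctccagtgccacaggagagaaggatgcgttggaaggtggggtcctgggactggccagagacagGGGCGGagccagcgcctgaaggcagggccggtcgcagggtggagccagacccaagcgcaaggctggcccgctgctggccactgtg
Pla2g4a: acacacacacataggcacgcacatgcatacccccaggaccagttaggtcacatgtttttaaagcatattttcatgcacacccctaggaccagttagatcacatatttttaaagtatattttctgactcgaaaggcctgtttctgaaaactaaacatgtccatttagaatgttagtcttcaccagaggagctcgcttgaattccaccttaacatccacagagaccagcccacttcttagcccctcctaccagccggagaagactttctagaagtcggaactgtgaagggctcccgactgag
Tbxas1: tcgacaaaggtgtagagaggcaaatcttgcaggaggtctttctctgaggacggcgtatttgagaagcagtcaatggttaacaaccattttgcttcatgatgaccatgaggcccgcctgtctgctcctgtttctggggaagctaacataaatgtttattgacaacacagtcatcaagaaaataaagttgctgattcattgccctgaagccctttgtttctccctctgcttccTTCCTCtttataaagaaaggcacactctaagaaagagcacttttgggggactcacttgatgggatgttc
Cysltr2: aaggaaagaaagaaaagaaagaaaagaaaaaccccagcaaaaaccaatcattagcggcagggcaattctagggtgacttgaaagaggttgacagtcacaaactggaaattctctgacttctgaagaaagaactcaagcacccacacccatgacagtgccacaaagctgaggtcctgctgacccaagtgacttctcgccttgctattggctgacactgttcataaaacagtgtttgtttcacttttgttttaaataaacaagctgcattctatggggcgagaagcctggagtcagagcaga

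The Alox5 window held 1 GC box, starting at position −35 from the start site, and 1 GAGGAA at position −136. The Tbxas1 window held TTCCTC at position −19, and the windows of Pla2g4a and Cysltr2 held neither motif. Of 32851 windows of the same length in the table, 35.7% held a GC box and 28.3% held GAGGAA. The letters AGATAA, a motif of the GATA factors, stood in 11.2% of all windows and in none of these 4. The same held for TTCNNNGAA, the STAT palindrome, which stood in 8.3% of all windows. By base composition Alox5 stood apart from the other 3: its window was 55.7% G and C, against 45.3% for Pla2g4a, 44.3% for Tbxas1 and 43.7% for Cysltr2, with a median of 52.7% over the table. Windows were also listed for Lta4h and Ltc4s, whose levels differed little between groups, and each held 1 GAGGAA and no GC box. Their G and C content was higher than that of Alox5, at 60.7% for Lta4h and 58.7% for Ltc4s. A high G and C content was thus not particular to the gene that rose. A match is a stretch of letters and not a measured site.

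Another 55 measured genes of the same pathway, of 62 listed, gave 0 calls in any comparison by limma; 3, 5 and 1 of them had an unadjusted p under 0.05 in BCR-ABL against vector, BCR-ABL-Blk against vector and BCR-ABL-Blk against BCR-ABL, where 8.64%, 9.42% and 3.96% of all genes did. Their median difference from vector was 0.01 in BCR-ABL cells and 0.001 in BCR-ABL-Blk cells. The nearest to the threshold in BCR-ABL cells was Ptger3, the EP3 receptor for prostaglandin E2. It read 8.86 and 8.88 on the BCR-ABL-Blk arrays and 9.09 and 9.22 on the BCR-ABL arrays, against 8.325 and 8.13 on the vector arrays. Like Alox5 it did not overlap between any of the 3 groups and was highest in BCR-ABL cells. Its difference from vector was 0.93 in BCR-ABL (SE 0.14, 1.91-fold, adjusted p = 0.0699) and 0.64 in BCR-ABL-Blk cells (SE 0.14, 1.56-fold, adjusted p = 0.168).

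Mgst2, a microsomal glutathione S-transferase that can also make leukotriene C4, stood on the opposite side. It read 9.495 and 9.99 on the BCR-ABL-Blk arrays and 10.25 and 10.11 on the BCR-ABL arrays, against 10.83 and 11.43 on the vector arrays. The 3 groups did not overlap, with BCR-ABL-Blk lowest. The difference from vector was −0.95 in BCR-ABL (SE 0.23, adjusted p = 0.224) and −1.39 in BCR-ABL-Blk cells (SE 0.23, adjusted p = 0.0730), neither past the test. Without vector replicate 1 the differences were −1.25 and −1.69, and without vector replicate 2 they were −0.65 and −1.09. Ptgr1, a reductase that inactivates leukotriene B4 and prostaglandins, read 11.34 and 11.32 on the BCR-ABL-Blk arrays and 11.43 and 11.31 on the BCR-ABL arrays, against 11.66 and 11.85 on the vector arrays. Both groups with BCR-ABL lay below vector, by −0.39 in BCR-ABL (SE 0.09, adjusted p = 0.196) and −0.42 in BCR-ABL-Blk cells (SE 0.09, adjusted p = 0.138).

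By role, the genes of arachidonate release, reacylation and transport held 15 measured members beside Pla2g4a, with differences in BCR-ABL cells from −0.33 (Mboat7, a lysophospholipid acyltransferase) to 0.32 (Abcc1, an exporter of leukotriene C4). The 17 other leukotriene and lipoxygenase enzymes ran from −0.95 (Mgst2) to 0.33 (Alox12, the platelet 12-lipoxygenase), and Alox12 was at 0.44 in BCR-ABL-Blk cells. The 11 prostanoid enzymes beside Tbxas1 ran from −0.39 (Ptgr1) to 0.46 (Hpgds, a prostaglandin D2 synthase). The 12 other receptors ran from −0.205 (Tbxa2r, the thromboxane receptor) to 0.93 (Ptger3). In BCR-ABL-Blk cells the prostaglandin E2 receptor gene Ptger2 was at −0.39 (adjusted p = 0.275) and the leukotriene B4 receptor gene Ltb4r1 at −0.36 (adjusted p = 0.540). Between BCR-ABL-Blk and BCR-ABL cells the 6 smallest p-values belonged to Pla2g12a, a secreted phospholipase A2 (−0.44), Ptger2 (−0.22), Ptger3 (−0.29), Mgst2 (−0.44), Ptgdr, a prostaglandin D2 receptor (0.17), and Cotl1, a protein that binds 5-lipoxygenase (0.35), all at an adjusted p of 0.999.

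**Figure D4:**
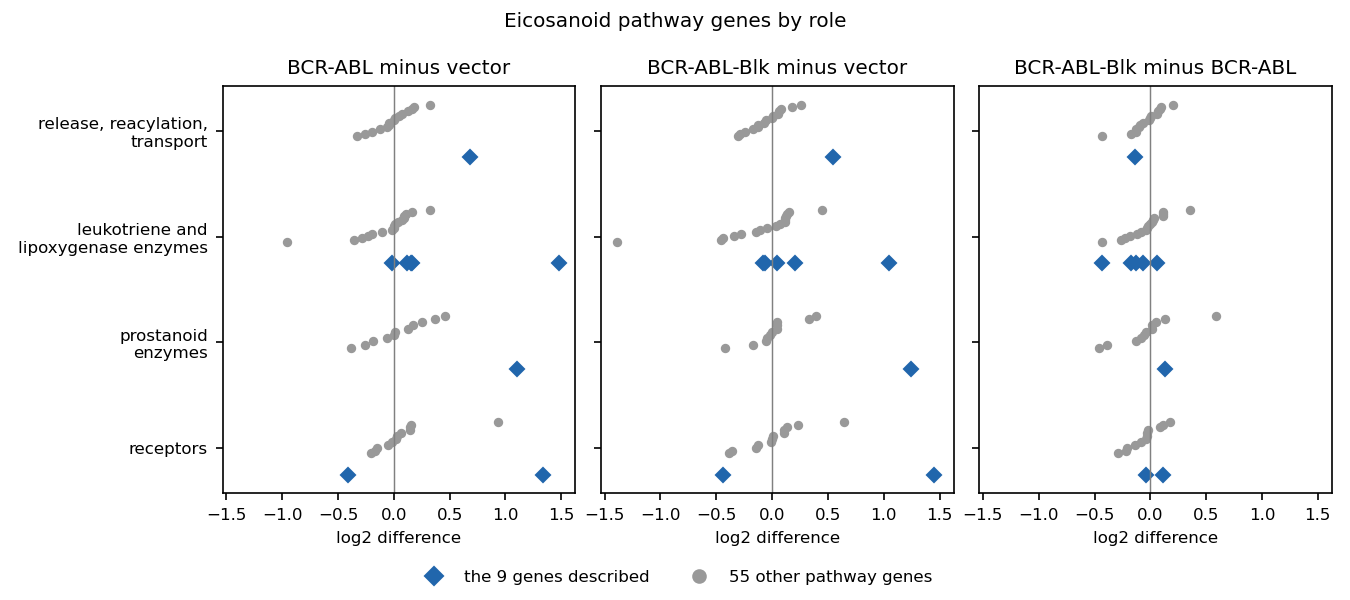
Log2 difference (horizontal axis) of the 9 genes described (diamonds) and of 55 other pathway genes (circles, 1 per gene, spread vertically by rank) in each comparison, by role. Among receptors Ptger3 (0.93) lies nearest to Cysltr2 in BCR-ABL minus vector, and among leukotriene enzymes Mgst2 (−0.95) lies farthest to the left.

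Among 1024 genes whose 6 arrays spanned at least 1 log2 unit, the 5 with the highest Pearson correlation to Alox5 were Slc7a8, an amino acid transporter (r = 0.987), Ccl6, a myeloid chemokine (0.985), Il12rb2, a subunit of the interleukin 12 receptor (0.983), Ctla2a, an inhibitor of cysteine proteases (0.978), and Ptger3 (0.977). This describes 6 arrays in 3 groups, which the points share, and 55 of the 1024 genes had r above 0.9. Predicted genes, clones, small RNAs, and olfactory and vomeronasal receptors were left out of the 1024. Of the 5, Ctla2a passed the test against vector, at 0.98 in BCR-ABL (adjusted p = 0.0187) and 0.86 in BCR-ABL-Blk cells (adjusted p = 0.0383). It read 11.61 and 11.47 on the BCR-ABL-Blk arrays and 11.57 and 11.74 on the BCR-ABL arrays, against 10.64 and 10.71 on the vector arrays. Among the members, Pla2g4a was most like Alox5 (r = 0.949), followed by Tbxas1 (0.867), Alox15 (0.784) and Cysltr2 (0.697), while Alox5ap had r = −0.01 and Cysltr1 r = −0.60.

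**Figure D5:**
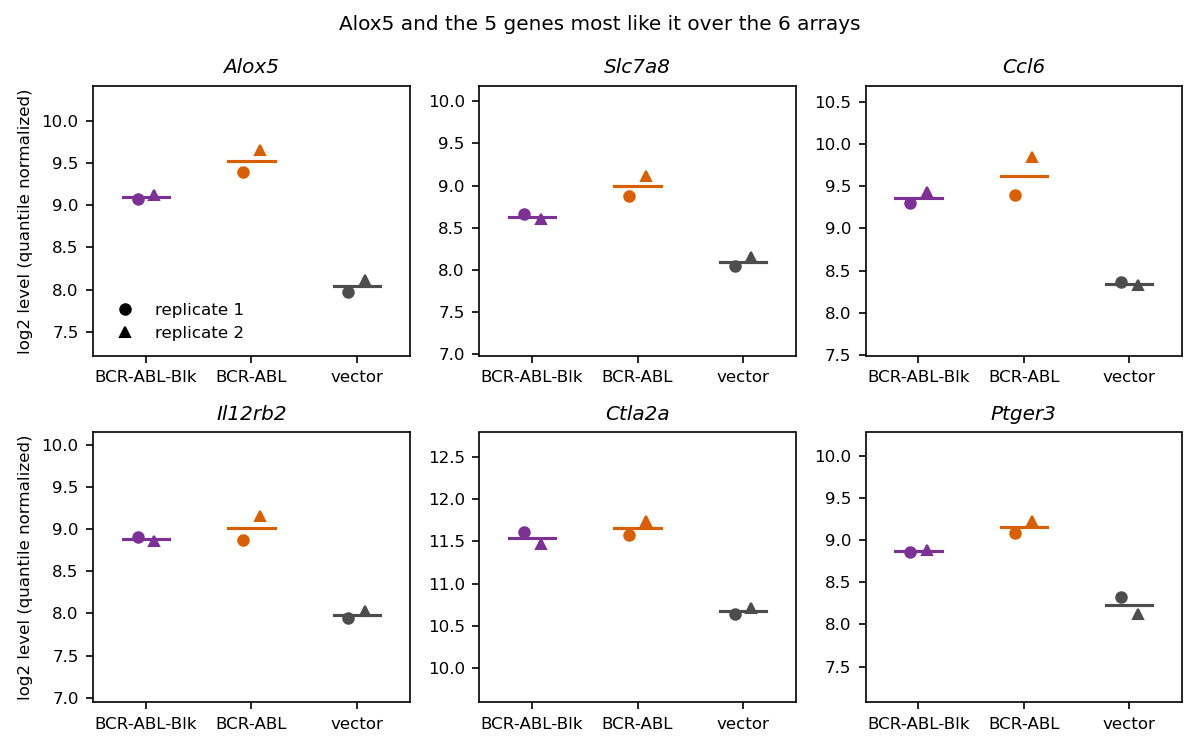
Quantile-normalized log2 level (vertical axis) of Alox5 and the 5 genes most like it on each array; circles are replicate 1, triangles replicate 2, bars the group means, and every axis spans the same number of log2 units. In each panel all 4 arrays with BCR-ABL lie above both vector arrays, which the choice of genes by their likeness to Alox5 favours.

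Marker genes of other cell types were averaged on each array, although the Lin-c-Kit+Sca-1+ gate should remove mature blood cells. Few of these genes passed the test. The 14 measured genes of mast cells, basophils and eosinophils averaged 9.50 and 8.69 on the BCR-ABL-Blk arrays and 9.32 and 9.43 on the BCR-ABL arrays, against 8.73 and 8.71 on the vector arrays; BCR-ABL-Blk replicate 2 thus read as low as the vector arrays. The genes of this list went both ways: 9 were above and 5 below vector in BCR-ABL cells (median 0.41), and 7 above and 7 below in BCR-ABL-Blk cells (median 0.025). Gzmb, a granule protease, was the 1 gene of the 14 that passed, in BCR-ABL (3.25, adjusted p = 0.0187) and BCR-ABL-Blk cells (2.50, adjusted p = 0.0490) against vector. Prg2, an eosinophil granule protein, had differences of −0.98 and −1.11 (adjusted p = 0.150 and 0.0955). The 9 measured megakaryocyte and platelet genes averaged 8.30 and 8.31 on the BCR-ABL-Blk arrays and 8.46 and 8.38 on the BCR-ABL arrays, against 7.99 and 7.70 on the vector arrays, with 0 called. The 10 measured monocyte and macrophage genes averaged 8.40 and 8.46 on the BCR-ABL-Blk arrays and 8.43 and 8.78 on the BCR-ABL arrays, against 9.38 and 9.50 on the vector arrays, and Ccr2, a chemokine receptor of monocytes, passed as lower in BCR-ABL-Blk cells (−1.38, adjusted p = 0.0490). B cell genes averaged 8.20 and 7.86 on the BCR-ABL-Blk arrays and 7.53 and 7.88 on the BCR-ABL arrays, against 10.60 and 8.96 on the vector arrays. Neutrophil genes averaged 9.80 and 9.67 on the BCR-ABL-Blk arrays and 9.94 and 10.20 on the BCR-ABL arrays, against 10.12 and 10.89 on the vector arrays. No B cell or neutrophil gene passed. Of 10 T and NK cell genes, Klrd1, an NK cell receptor, passed as lower in BCR-ABL (−1.29, adjusted p = 0.0187) and BCR-ABL-Blk cells (−1.03, adjusted p = 0.0490). The 8 measured genes of the sorted LSK cells averaged 9.91 and 9.95 on the BCR-ABL-Blk arrays and 9.79 and 9.90 on the BCR-ABL arrays, against 9.34 and 9.12 on the vector arrays. In each of the BCR-ABL and BCR-ABL-Blk groups 6 of them were above and 2 below vector. The 2 were Kit (−0.39 and −0.28) and Flt3 (−0.20 and −0.32), neither past the test. Meis1, a transcription factor of stem cells, passed as higher in BCR-ABL-Blk cells (1.08, limma adjusted p = 0.0490). The 7 measured erythroid genes averaged 9.38 and 9.09 on the BCR-ABL-Blk arrays and 9.60 and 9.53 on the BCR-ABL arrays, against 10.41 and 9.88 on the vector arrays, with 0 called. The platelet and LSK averages were thus higher on every array with BCR-ABL than on the vector arrays, and the monocyte, B cell and erythroid averages lower. The share of these cell types in the values of Alox5, Tbxas1 and the receptors was not tested.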

How the data were processed

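The deposited values are log2 intensities of 35557 probe sets, made with Affymetrix Expression Console 1.1 and RMA, per the submitters' processing notes; RMA's options were not given in the sources used here. The 6 arrays did not share 1 distribution, so they were quantile normalized. Symbols came from the platform annotation: 21789 probe sets had 1 symbol, 1621 several and 12147 were not listed. The probe set with the highest mean was kept for each of 19938 genes, and no filter on level was used. Groups come from the sample titles, which call the replicates biological.

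Differences were tested with limma 3.58.1 in R 4.3.3 (lmFit; eBayes, trend by intensity) with all 6 arrays in 1 fit and no block, two-sided, with Benjamini-Hochberg adjustment over 19938 genes and a threshold of 0.05; intervals are 95%. The fit was tested on simulated data. Alternatives were another or no normalization, a filter on low levels, other probe set summaries, other estimates of the spread, a replicate block and leaving out each array. Named were all members, pathway genes past the threshold or among the 6 smallest p-values, and the 5 genes most like Alox5; of the pathway genes, those at the end of a range were also named. Members and lists were chosen with earlier results of these data known. RefSeq promoters were matched by Entrez ID for 6 of the 9 genes. The marker lists of T and NK cells (10 genes, medians of −0.02, −0.10 and −0.09 for BCR-ABL against vector, BCR-ABL-Blk against vector and BCR-ABL-Blk against BCR-ABL), erythroid cells (7 genes, −0.51, −1.05 and −0.295) and sorted LSK cells (8 genes, 0.64, 0.75 and 0.11) served as checks.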

Additional observations from a re-analysis of the deposited data

How the results depend on the processing

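The Alox5 difference kept its sign under all 14 alternatives in each comparison. Against vector it passed in 9 of 14 for BCR-ABL and in 3 of 14 for BCR-ABL-Blk. Limiting the fit to the 2 groups compared, which leaves fewer arrays for the spread, ended the BCR-ABL call (1.48, adjusted p = 0.0551) and left 0 members called. With each array left out, the Alox5 difference ran from 1.35 to 1.615 for BCR-ABL and from 0.98 to 1.13 for BCR-ABL-Blk. Such fits are among the 14, and each leaves 1 array in a group, whose spread it cannot measure. In the fits with an array left out the median member difference ran from 0.17 to 0.46 for BCR-ABL, the highest without vector replicate 2. Over the other alternatives it ran from 0.1, without normalization between arrays, to 0.245.

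Without normalization between arrays 4 members passed as higher in each comparison with vector: Alox5, Pla2g4a, Tbxas1 and Cysltr2. In that setting 401 of 19938 genes passed for BCR-ABL and 732 for BCR-ABL-Blk, against 29 and 28 with quantile normalization. Alox5 was then at 1.205 in BCR-ABL-Blk cells. Of the other pathway genes 3 passed for BCR-ABL (Mgst2, Ptgr1, Ptger3) and 2 for BCR-ABL-Blk (Mgst2, Ptger3). For BCR-ABL-Blk against BCR-ABL the median member difference was then 0.17, with Alox5ap at 0.105, Alox15 at 0.17, Lta4h at 0.03, Pla2g4a at 0.05, Cysltr1 at 0.265 and Ptger2 at 0.08, all turned in sign with the median gene (0.255). Against vector, Alox5ap (0.095) and Lta4h (0.13) turned for BCR-ABL-Blk in that setting, and Alox5ap (0.135) for BCR-ABL with arrays centred on their medians. The cause was not tested.

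With each array left out, small differences turned in sign: for BCR-ABL against vector Alox5ap ran from −0.15 to 0.12, Lta4h from −0.23 to 0.46 and Cysltr1 from −0.88 to 0.067. For BCR-ABL-Blk against vector Alox5ap ran from −0.225 to 0.068, Lta4h from −0.40 to 0.28 and Cysltr1 from −0.92 to 0.032. For BCR-ABL-Blk against BCR-ABL Alox5ap ran from −0.21 to 0.081, Ltc4s from −0.015 to 0.13, Tbxas1 from −0.013 to 0.28, Cysltr1 from −0.12 to 0.05 and Cysltr2 from −0.24 to 0.47. Calls of other pathway genes in these fits are not given, since each fit leaves 1 array in a group.

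Over all genes, 29 were called for BCR-ABL and 28 for BCR-ABL-Blk against vector. Without normalization these were 401 (176 higher and 225 lower, against 24 and 5) and 732, without an intensity trend 15 and 4, and with an array left out from 1 to 507 and from 4 to 560; for BCR-ABL-Blk with array weights the count was 14, and with only the 2 groups compared 4. For BCR-ABL-Blk against BCR-ABL 79 genes passed without normalization and 2 without BCR-ABL-Blk replicate 1. Of the 5 genes most like Alox5, 3 were shared without normalization and 4 with arrays centred on their medians. All 5 kept r of at least 0.97 in both settings. Without normalization Ptger3 had r = 0.984, above each gene listed there, and was left out by the required span of 1 log2 unit. The checks on likeness and those on other pathway genes were chosen after seeing the data.

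Same-numbered arrays did not deviate together (r over genes of −0.06, 0.08 and 0.03), and the main fit used no pairing. With 1 replicate difference in each group these values cannot exclude a shared preparation. With a replicate block the Alox5 difference in BCR-ABL cells was 1.48 (adjusted p = 0.0279), with 1 member called, and it changed no call of a member.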
